A study of Mus musculus with 4 samples.

Results

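The globins and red cell genes described here were 10 genes out of 26252 features in a table of sequence tags from limbs of mouse embryos. They were chosen by name: the adult alpha globins Hba-a1 and Hba-a2, the embryonic alpha globin Hba-x, the adult beta globin Hbb-bs, the embryonic beta globins Hbb-bh1 and Hbb-y, and 4 other genes of the red cell, Alas2, Slc4a1, Fech and Car2. The value of a gene was the sum of its tags, and 9 of the 10 had tags in the table. The table assigned no tag to Hba-a1, so it has no gene sum here, though 1 tag listed under Hba-a2 matched Hba-a1 alone. The libraries came from total RNA of dissected limbs of CD1 embryos at E14.5, with 2 hindlimb and 2 forelimb libraries labelled as biological replicates. The labels name no mutation or treatment. They do not state whether an RNA sample held limbs of 1 or of several embryos, so p-values measure the spread between these samples alone.

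Hemoglobin carries oxygen in red cells as a tetramer of alpha and beta chains, each holding a heme group. In the mouse, the first red cells arise in the yolk sac and carry embryonic chains, zeta (Hba-x) with epsilon-y (Hbb-y) and beta-h1 (Hbb-bh1). Later red cells mature in the fetal liver and carry the adult chains. The alpha genes lie together on chromosome 11 and the beta genes on chromosome 7, in an order that follows their use in development. The limb is not known as a site of red cell production at this stage, so globin RNA in a dissected limb is usually that of its blood.

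The libraries held 5325279 and 5015295 counts in hindlimb replicates 1 and 2, against 4695786 and 1829647 in forelimb replicates 1 and 2. A single count was worth 0.224 and 0.254 CPM (counts scaled by library size, with TMM factors) in hindlimb and 0.256 and 0.621 CPM in forelimb. The genes that mark limb identity went with the labels. Pitx1 and Tbx4, both of hindlimb, had log2 fold changes of hindlimb over forelimb of 6.72 and 2.95, and Tbx5 of forelimb had −3.77. All of them passed edgeR's test.

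In DGE-SAGE the enzyme NlaIII cuts cDNA at CATG, the cut nearest the poly(A) end is captured, and the 17 bases beside it are read as the tag of that transcript. The adult globin tags are shown first because the limb comparison turns on them and because most of them cannot be given to 1 gene. Capitals mark the NlaIII site, lower case is the tag, and sites are counted from the 3′ end of the transcript. Genes and positions are from matching the tags to GENCODE M21 on GRCm38. Hba-a1 and Hba-a2, a nearly identical pair on the plus strand of chromosome 11, had 5 sites each.
Adult alpha site 1: CATGcccttcttctctccctt
Adult alpha site 2: CATGcctctctggacaaattc
Adult alpha site 3: CATGcccacaagctgcgtgtg
Adult alpha site 4: CATGgtgctgaatatggagct
Adult alpha site 5: CATGgtgctctctggggaaga
Sites 1, 3, 4 and 5 read the same in both genes. In Hba-a2, site 1 lies in the 3′ UTR in exon 3 (chr11:32297238-32297258), site 3 in coding exon 2 (chr11:32296907-32296927), and sites 4 and 5 in coding exon 1 (chr11:32296584-32296604 and chr11:32296523-32296543). The CATG of site 5 spans the start codon.

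Site 2, in coding exon 3, differs between the copies. The table gave the tag shown to Hba-a2, but in M21 it matched Hba-a1 alone (chr11:32284329-32284349). The Hba-a2 version carries C11T, counted from 1 at the first base of the tag after CATG. The capital marks the differing base.
Hba-a1 version: cctctctggaCaaattc
Hba-a2 version: cctctctggaTaaattc
The Hba-a1 version had 2758 and 2733 counts in hindlimb and 799 and 294 in forelimb. The Hba-a2 version had 1 and 1 in hindlimb and 0 and 0 in forelimb. The label Hba-a2 in these data therefore covers both adult alpha genes, and at the site that separates them nearly all counts read as Hba-a1 in M21. Of all counts under Hba-a2, 73.3% lay in tags that match both copies.

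The adult beta genes Hbb-bs and Hbb-bt, on the minus strand of chromosome 7, share 4 sites. M21 holds the genes of the C57BL/6J strain, and the labels do not give the beta globin haplotypes of the CD1 embryos.
Adult beta site 1: CATGtggatcctgagaacttc
Adult beta site 2: CATGgcaagaaagtgataact
Adult beta site 3: CATGggtaatgccaaagtgaa
Adult beta site 4: CATGgtgcacctgactgatgc
In Hbb-bs, sites 1 to 3 lie in coding exon 2 (chr7:103827451-103827471, chr7:103827553-103827573 and chr7:103827578-103827598) and site 4 in coding exon 1 (chr7:103827856-103827876), where its CATG spans the start codon. Each tag matched Hbb-bs and Hbb-bt. The tag of site 1 also matched Hbb-bh1 and Hbb-y, in which it is not the last site. Tags shared between globin genes held 98.5% of the counts of Hbb-bs, and no tag was assigned to Hbb-bt or Hbb-bh2. No counted tag of Hba-x, Hbb-bh1 or Hbb-y matched a second gene.

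Among the 9 genes with tags, all 9 passed the filter on low counts. The adult globin labels differed in opposite directions between the limbs: Hba-a2 was higher in hindlimb, while Hbb-bs and the carbonic anhydrase Car2 were lower. By edgeR's quasi-likelihood test with Benjamini-Hochberg adjustment, 1 of the 9 was called higher in hindlimb and 2 lower, and 6 did not pass. Over all 13718 tested genes, 9.58% were called higher and 7.08% lower, so the share called higher was near the background and the share called lower rested on 2 genes. Both hindlimb libraries lay above both forelimb libraries for 3 genes and below for 4, against 31.4% of all genes in each direction. The median log2 fold change of the 9 genes was −0.57, against −0.03 over all genes tested.

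**Figure D1:**
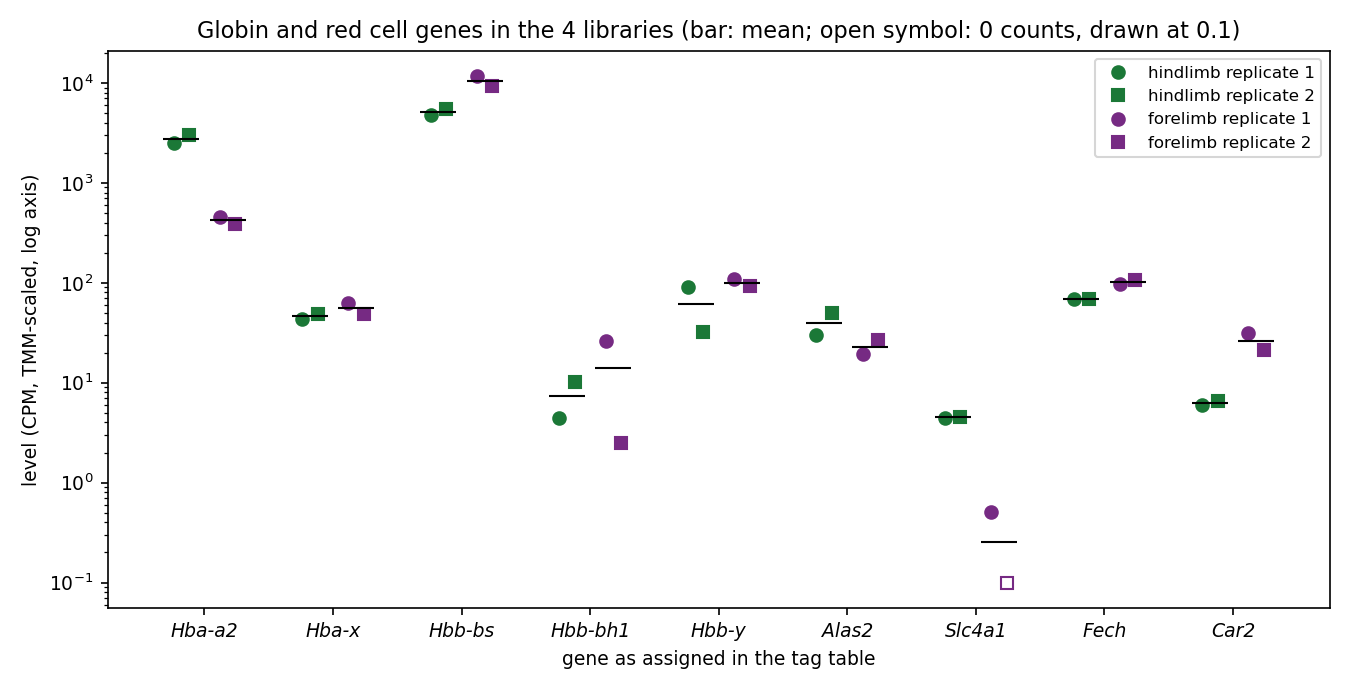
Level of each red cell gene in each library (CPM on a log axis); points are single libraries, with hindlimb left of forelimb, and a library with no count is marked as such. Hba-a2 and Slc4a1 stand higher in both hindlimb libraries, Hbb-bs and Car2 lower, and Hba-x and Hbb-bh1 overlap between the limbs.

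Adult alpha globin, under the label Hba-a2 (ENSMUSG00000069917, chromosome 11, 32296489 to 32297298), had 2525 and 3027 CPM in hindlimb and 456 and 385 CPM in forelimb. Both hindlimb libraries were far above both forelimb libraries. Its hindlimb level was 6.60 times the forelimb level, or 2.72 ± 0.33 as a log2 fold change (SE, edgeR adjusted p = 1.5e-04, n = 2 each). It passed without any 1 of the libraries (2.60 to 2.85), from tags that match 1 gene in M21 (1.76) and from its most abundant tag (5.0). It did not pass with a per-library offset for tag composition, described below, which left it at 0.51 (adjusted p = 0.490).

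Adult beta globin, under the label Hbb-bs (ENSMUSG00000052305, chromosome 7, 103826534 to 103828096), was the most abundant of these genes. It had 4732 and 5550 CPM in hindlimb and 11720 and 9308 CPM in forelimb, with no overlap. Its log2 fold change of −1.03 ± 0.32 passed (SE, edgeR adjusted p = 0.0362). The call ended without forelimb replicate 1 (−0.86, adjusted p = 0.112), without hindlimb replicate 1 (−0.93, adjusted p = 0.0611), without hindlimb replicate 2 (−1.14, adjusted p = 0.0506) and with the tag composition offset (−0.20, adjusted p = 0.865).

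The embryonic globins did not pass the test. Hba-x, the zeta chain (ENSMUSG00000055609), had 43.8 and 49.2 CPM in hindlimb and 62.2 and 49.1 CPM in forelimb, overlapping, with a log2 fold change of −0.27 ± 0.35 (SE, edgeR adjusted p = 0.640). Hbb-y, the epsilon-y chain (ENSMUSG00000052187), had 90.5 and 31.9 CPM in hindlimb and 108 and 93.2 CPM in forelimb. Hindlimb replicate 1 lay close to the forelimb libraries, and hindlimb replicate 2 lay well below them. A log2 fold change of −0.72 ± 0.40 did not pass (SE, edgeR adjusted p = 0.228). It was −1.67 without hindlimb replicate 1 and −0.14 without hindlimb replicate 2, so its size rested on which hindlimb library was read.

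Hbb-bh1, the beta-h1 chain (ENSMUSG00000052217), was the least abundant of the globins with a sum among the 10 genes. It had 20 and 40 counts in hindlimb and 101 and 4 in forelimb. The forelimb replicates lay on both sides of the hindlimb replicates. The log2 fold change of −1.05 ± 0.71 (SE, edgeR adjusted p = 0.322) turned to 1.53 without forelimb replicate 1 and stood at −1.84 without forelimb replicate 2, where it passed (adjusted p = 0.0418). Its direction therefore rested on which forelimb library was read.

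Of the enzymes of heme synthesis, Alas2 makes the first intermediate in red cells and Fech inserts the iron in the last step. Alas2 (ENSMUSG00000025270, chromosome X) had 29.7 and 49.9 CPM in hindlimb and 19.2 and 26.7 CPM in forelimb, a log2 fold change of 0.81 ± 0.40 (SE, edgeR adjusted p = 0.173). Both hindlimb libraries lay above both forelimb libraries. With 1 library left out, the log2 fold change ran from 0.41 (without hindlimb replicate 2) to 1.13 (without hindlimb replicate 1). Fech, which many tissues also use, had 69.1 and 68.2 CPM in hindlimb and 97.6 and 106 CPM in forelimb. It lay lower in both hindlimb libraries but did not pass (−0.57 ± 0.32 SE, edgeR adjusted p = 0.226).

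Slc4a1 (band 3), the anion exchanger that anchors the red cell membrane to its skeleton, was near the limit of detection. It had 20 and 18 counts in hindlimb and 2 and 0 in forelimb. The ratio of the summed counts, per count in the library, was 12.4 (exact 95% interval 3.22 to 107, counting error only), and edgeR's adjusted p was 0.0668. Car2, the carbonic anhydrase that interconverts carbon dioxide and bicarbonate in red cells and other cells, had 6.04 and 6.59 CPM in hindlimb and 31.8 and 21.1 CPM in forelimb. The groups did not overlap, and a log2 fold change of −2.08 ± 0.47 passed the test (SE, edgeR adjusted p = 0.00750). The call ended without forelimb replicate 1 (−1.74, adjusted p = 0.0832) and with the tag composition offset (−0.34, adjusted p = 0.863).

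The order of the levels was alike at the top and differed below. In both limbs it ran Hbb-bs, Hba-a2, Fech, Hbb-y and Hba-x, and Slc4a1 was last. In hindlimb Hba-a2 had 2776 ± 355 CPM and Fech 68.6 ± 0.621 CPM, followed by Hbb-y at 61.2 ± 41.4, Hba-x at 46.5 ± 3.80 and Alas2 at 39.8 ± 14.3 CPM (SD, n = 2). From Fech to Alas2 each gene overlapped the next in its replicates, as did Hbb-bh1 and Car2 below them. In forelimb Hba-a2 had 420 ± 50.7 CPM, Fech 102 ± 6.14 CPM and Hbb-y 101 ± 10.5 CPM, the last pair within their spread. Car2, Alas2 and Hbb-bh1 followed Hba-x there and also overlapped. CPM of tags are not scaled by length, and 1 transcript is meant to give 1 tag, so levels of genes are compared here as tags.

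Summed over the tags of each gene, embryonic chains were the smaller part of globin counts in every library. Hba-x made up 1.71% and 1.60% of alpha-like counts in hindlimb (Wilson 95% intervals 1.48% to 1.96% and 1.39% to 1.84%). In forelimb it made up 12% and 11.3% (10.7% to 13.5% and 9.18% to 13.9%). The shares did not overlap between the limbs, whereas the level of Hba-x itself did. Read from the last site of each gene alone, Hba-x made up 0.976% and 1.05% of alpha-like tags in hindlimb and 34.3% and 48.1% in forelimb, so the forelimb share depended on the tags read. For the share over all tags the exact two-sided permutation test gave p = 0.333, the smallest that 2 against 2 libraries allow. The beta-like share of Hbb-y and Hbb-bh1 was 1.97% and 0.753% in hindlimb and 1.13% and 1.02% in forelimb, overlapping (exact permutation p = 1). Beta site 1, with 87.4% of the Hbb-bs counts, also matches Hbb-y and Hbb-bh1 and was counted as adult. Embryonic transcripts read at that site are therefore not in this share. Summed, the embryonic beta genes had a log2 fold change of −0.75 ± 0.38 (SE, edgeR adjusted p = 0.180). The sum passed without hindlimb replicate 1 (−1.47, adjusted p = 0.00226) and stood at −0.27 without hindlimb replicate 2.

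**Figure D2:**
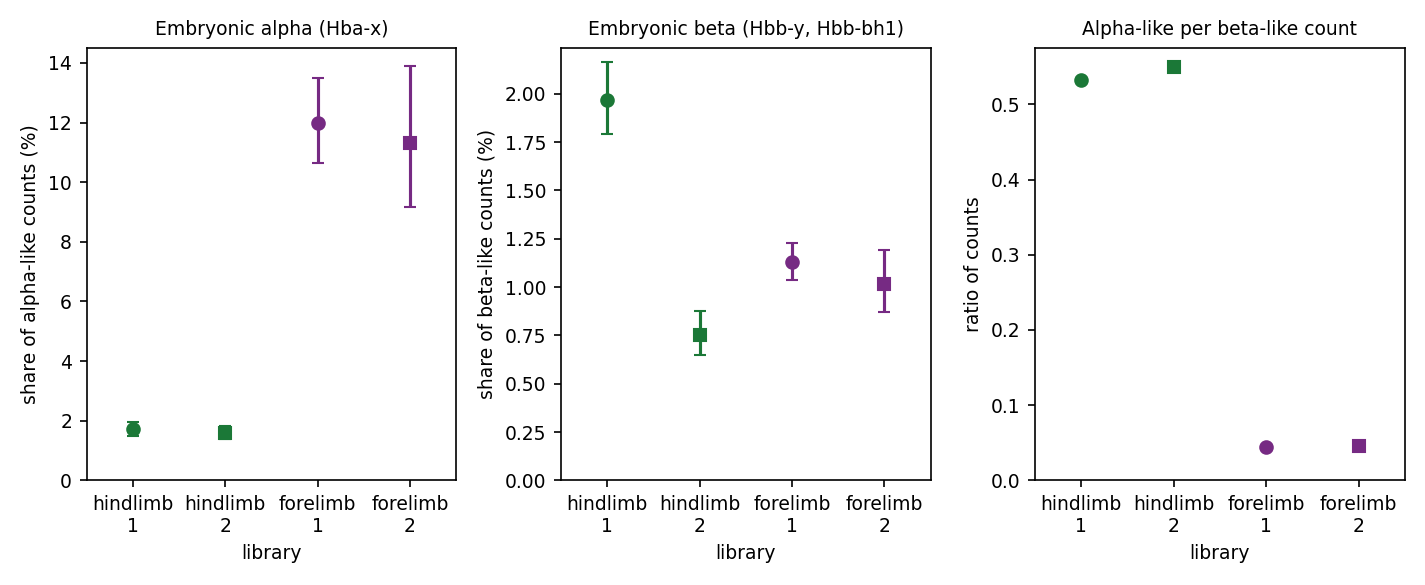
Share of embryonic chains in the alpha-like and beta-like globin counts of each library (percent), with 95% Wilson intervals. The alpha share was 1.71% and 1.60% in hindlimb, against 12% and 11.3% in forelimb, while the beta shares of the limbs overlapped.

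The balance of the chains differed as well. Alpha-like counts per beta-like count were 0.532 and 0.550 in hindlimb and 0.0437 and 0.0461 in forelimb, 12 times as high in hindlimb by the means (exact permutation p = 0.333, the smallest possible). Replicates were close to each other in both limbs. All globin counts together were 0.621% and 0.682% of the hindlimb libraries and 1.03% and 0.865% of the forelimb libraries. In bulk tissue such as this, the number of red cells and the RNA per red cell cannot be told apart. Tag composition also differed between the libraries, as described below, and the cause of the lower hindlimb share was not tested.

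Tags of the same gene gave different answers, most of all for adult alpha globin. At site 1, in the 3′ UTR, the counts were 7002 and 7922 in hindlimb and 264 and 68 in forelimb, a log2 fold change of 5.0 ± 0.47 (SE, edgeR over single tags, adjusted p = 0.00650). Site 2 had 1.75 ± 0.38 (adjusted p = 0.0355), and site 3 had 2.95 ± 0.54 (adjusted p = 0.0232). Site 4 had 236 and 143 counts in hindlimb and 277 and 93 in forelimb, at −0.54 ± 0.43 (edgeR adjusted p = 0.438). Site 5, at the start codon, had 638 and 480 counts in hindlimb and 274 and 125 in forelimb, at 0.83 ± 0.40 (edgeR adjusted p = 0.198). The same transcripts thus read from 5.0 to −0.54 along their length. Site 1 held 62.0% and 66.4% of the Hba-a2 counts in hindlimb and 14.8% and 11.0% in forelimb.

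Adult beta globin also varied by site, with the opposite sign at the start codon. Site 1 had 16979 and 19043 counts in hindlimb and 41686 and 13008 in forelimb, at −1.13 ± 0.37 (SE, edgeR over single tags, adjusted p = 0.0862). Site 3 was at −0.91 ± 0.39 (adjusted p = 0.158), and site 2, with few counts, at −0.70 ± 0.53 (adjusted p = 0.419). Site 4 had 1386 and 1019 counts in hindlimb and 488 and 381 in forelimb, at 0.66 ± 0.43 (edgeR adjusted p = 0.343). No single site of adult beta globin passed the test over single tags. Fits of genes by their last site or by their most abundant tag read Hbb-bs from site 1 alone. There it passed (−1.25, edgeR adjusted p = 0.0204, and −1.14, adjusted p = 0.0417).

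**Figure D3:**
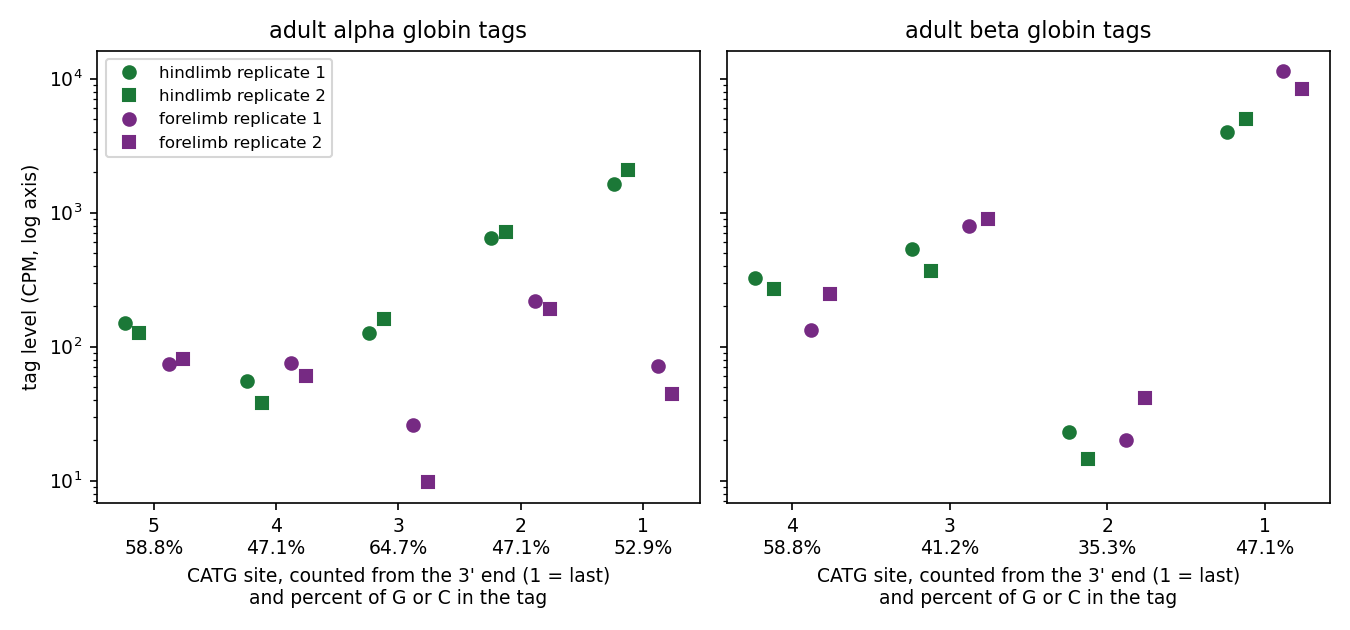
Level of the tag at each CATG site of the adult alpha and adult beta globins in each library (CPM on a log axis), with sites ordered from 5′ to 3′ and the percent of G or C of the tag below each. At alpha site 1 the hindlimb libraries (7002 and 7922 counts) lie far above the forelimb libraries (264 and 68 counts), while at alpha site 4 they lie below.

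The chain balance depended on the site. Read from the last site of each, adult alpha per adult beta was 0.412 and 0.416 in hindlimb and 0.00633 and 0.00523 in forelimb, 71.7 times as high in hindlimb by the means. Read from the start codon tags, a pair picked after their values were seen, it was 0.460 and 0.471 in hindlimb and 0.561 and 0.328 in forelimb, and the limbs overlapped. The ratio in hindlimb was alike from either pair of tags, and the ratio in forelimb was not.

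Whether the tags of a gene kept their ratio between the limbs was tested with edgeR's diffSpliceDGE, with Simes p-values adjusted over all genes. A difference was called for Hba-a2 (adjusted p = 6.5e-04), Hbb-bs (adjusted p = 0.0222) and Fech (adjusted p = 0.00929), against 10.4% of 8694 genes. It was not called for Hba-x (0.348), Hbb-y (0.649) or Alas2 (0.999, all adjusted p). In Fech, whose sequences are not shown, the 2 most abundant tags had −1.51 and −1.60, while another tag in the 3′ UTR had 45 and 93 counts in hindlimb and 6 and 3 in forelimb, at 3.30 ± 0.74 (SE, edgeR adjusted p = 0.0380). The gene sum of −0.57 thus joined tags whose fold changes had opposite signs. Over the 9 genes, 78 tags had counts and 39 could be tested. Of these 4 were called higher in hindlimb and 1 lower, 12.8%, against 6.22% of all 37805 tags tested (4.58% higher and 1.64% lower).

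The tags of the other genes that matched M21 were single-gene tags, shown here because the genes' values rest mostly on them.
Hba-x site 1: CATGaccagctatgatccctc
Hba-x site 3: CATGcctacatcctgcgtgtg
Hba-x site 7: CATGtccatgtgggagaagat
Hbb-bh1 site 1: CATGgggactgcattgagagc
Hbb-bh1 site 2: CATGtgtctatgatgccctct
Hbb-bh1 site 5: CATGgacaacctcaaggagac
Hbb-y site 1: CATGtttaataaagatcatcc
Hbb-y site 2: CATGaatactggactgttcct
Alas2 site 1: CATGggaccccaatatgttac
Alas2 site 2: CATGcaacttctgtcatcgtc
Alas2 site 3: CATGcgccagctgctaatgga
Slc4a1 site 1: CATGttttgggcacaccccat
Slc4a1 site 2: CATGcctgccctcctggcaca
Car2 site 1: CATGagacaaactgaagtaac
Car2 site 2: CATGgcctcttgcttctcttc
Tags of Hba-x had fold changes of opposite sign. Site 1 had 69 and 84 counts in hindlimb and 138 and 63 in forelimb (−1.02 ± 0.46), and site 3 had 55 and 41 in hindlimb and 18 and 3 in forelimb (1.70 ± 0.69). Neither passed (SE, edgeR adjusted p = 0.175 and 0.141). Site 7 of Hba-x, with 21 and 41 counts in hindlimb and 18 and 1 in forelimb, did not pass either (1.34 ± 0.90, edgeR adjusted p = 0.351). Site 1 of Hbb-y had 347 and 98 counts in hindlimb and 341 and 94 in forelimb, or 81.7 and 25.9 CPM in hindlimb and 92.9 and 60.8 CPM in forelimb, and did not pass (edgeR adjusted p = 0.578). Site 2 of Hbb-y had 30 and 9 counts in hindlimb and 41 and 34 in forelimb (−1.77 ± 0.71 SE, edgeR adjusted p = 0.137), and a tag given to Hbb-y with no match in M21 had 8 and 0 in hindlimb and 22 and 12 in forelimb. In Hbb-bh1, site 1 had 16 and 40 counts in hindlimb and 77 and 3 in forelimb. Its site 2 had 1 and 0 in hindlimb and 19 and 0 in forelimb, and its site 5 had 0 and 0 in hindlimb and 5 and 0 in forelimb. In each of these 3 tags forelimb replicate 1 had the most counts. In Alas2, site 1 had 88 and 173 counts in hindlimb and 47 and 36 in forelimb, site 2 had 15 and 15 in hindlimb and 5 and 3 in forelimb, and site 3 had 16 and 0 in hindlimb and 10 and 1 in forelimb. None of these Alas2 tags passed edgeR's test (adjusted p from 0.317 to 0.984). In Slc4a1, site 1 had 11 and 6 counts in hindlimb and 0 and 0 in forelimb, site 2 had 7 and 12 in hindlimb and 1 and 0 in forelimb, and a tag with no match in M21 had 2 and 0 in hindlimb and 0 and 0 in forelimb. Site 1 of Car2 had 18 and 26 counts in hindlimb and 124 and 33 in forelimb, at −2.32 ± 0.56 (SE, edgeR adjusted p = 0.0440), and its site 2 had 6 and 0 in hindlimb and 0 and 1 in forelimb.

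Tag composition differed between the libraries across the whole table, and it moved with these results. An offset per library was predicted from the bases of a tag, using 42831 tags of 9913 genes and only differences between tags of the same gene. It predicted 2.28 for alpha site 1, 1.98 for site 2, 2.73 for site 3, 0.59 for site 4 and 1.20 for site 5, as log2 differences of hindlimb minus forelimb. For beta it predicted −1.08 at site 1, 0.21 at site 2, −1.17 at site 3 and 1.09 at site 4, and for Car2 site 1 it predicted −2.08. The predictions for Hba-x were −0.67 at site 1, 2.06 at site 3 and 2.02 at site 7. Listed as above, the predictions for the 3 Fech tags were −1.31, −0.76 and 1.86, with the same signs as their fold changes. Over the 39 tested tags of these genes, the observed fold change and the prediction had the same sign for 29, with Pearson's r = 0.767. The tags used to fit the offset included tags of these genes. The correlation is also over tags that share libraries and genes, so it is a description. Alpha site 1 lay 2.73 above its prediction and alpha site 4 lay 1.13 below, while beta site 1 lay 0.05 below.

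**Figure D4:**
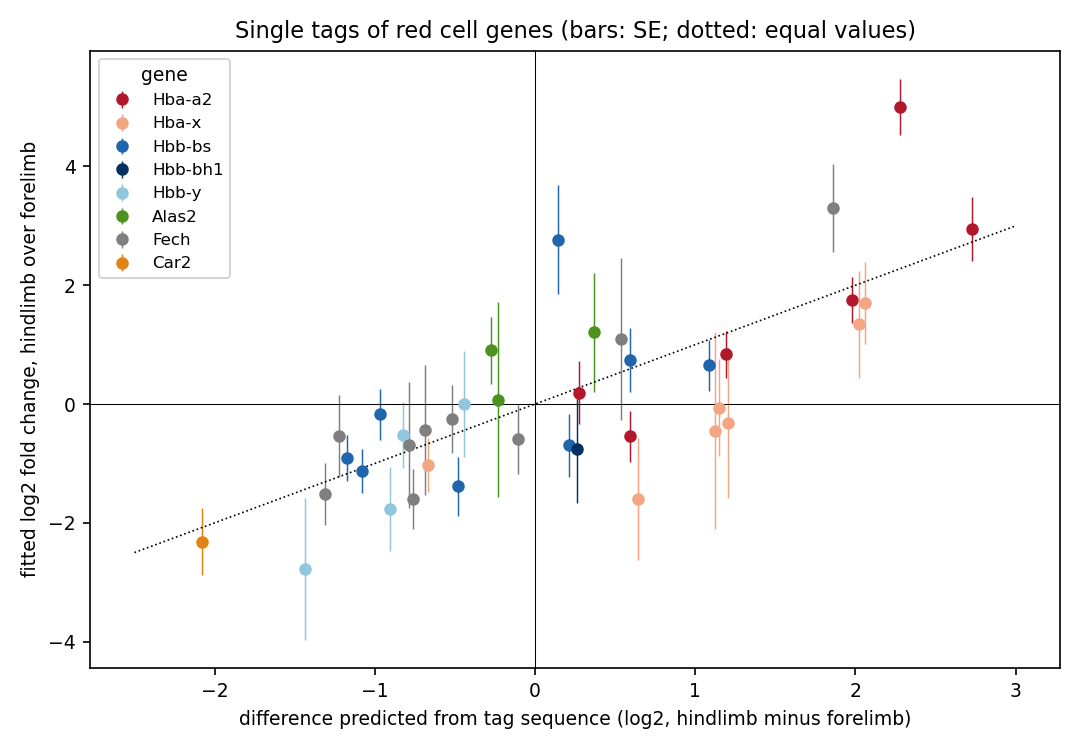
Log2 fold change of hindlimb over forelimb of each tested tag of the red cell genes, plotted against the difference predicted from the bases of the tag, with the line where both are equal. Of the 39 tags, 29 have the same sign on both axes, and alpha site 1, observed at 5.0 and predicted at 2.28, lies well above the line.

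With this offset, 0 of the 9 genes passed edgeR's test and 3 had an unadjusted p under 0.05. DESeq2 was not run with the offset; without it, DESeq2 called 3, the same number as edgeR. Of all tested genes, 0.182% passed with the offset, 0.0802% (11 genes) higher and 0.102% (14 genes) lower in hindlimb. The log2 fold changes with the offset were 0.51 for Hba-a2, −0.20 for Hbb-bs, −0.81 for Hba-x, −1.43 for Hbb-bh1 and −0.23 for Hbb-y. They were 0.78 for Alas2, 1.47 for Slc4a1, −0.25 for Fech and −0.34 for Car2. Alas2 hardly moved, and no gene changed sign. The embryonic alpha share with the offset was 2.29% and 3.47% in hindlimb and 7.83% and 6.33% in forelimb, still without overlap. An offset for the G and C content of the tags alone left Hba-a2 at 2.25, Hbb-bs at −1.17 and Car2 at −1.61. It moved Hbb-y to −0.03, Hbb-bh1 to −1.96 and Hba-x to −0.76, and left Alas2 at 0.59, Slc4a1 at 2.51 and Fech at −0.22.

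**Figure D5:**
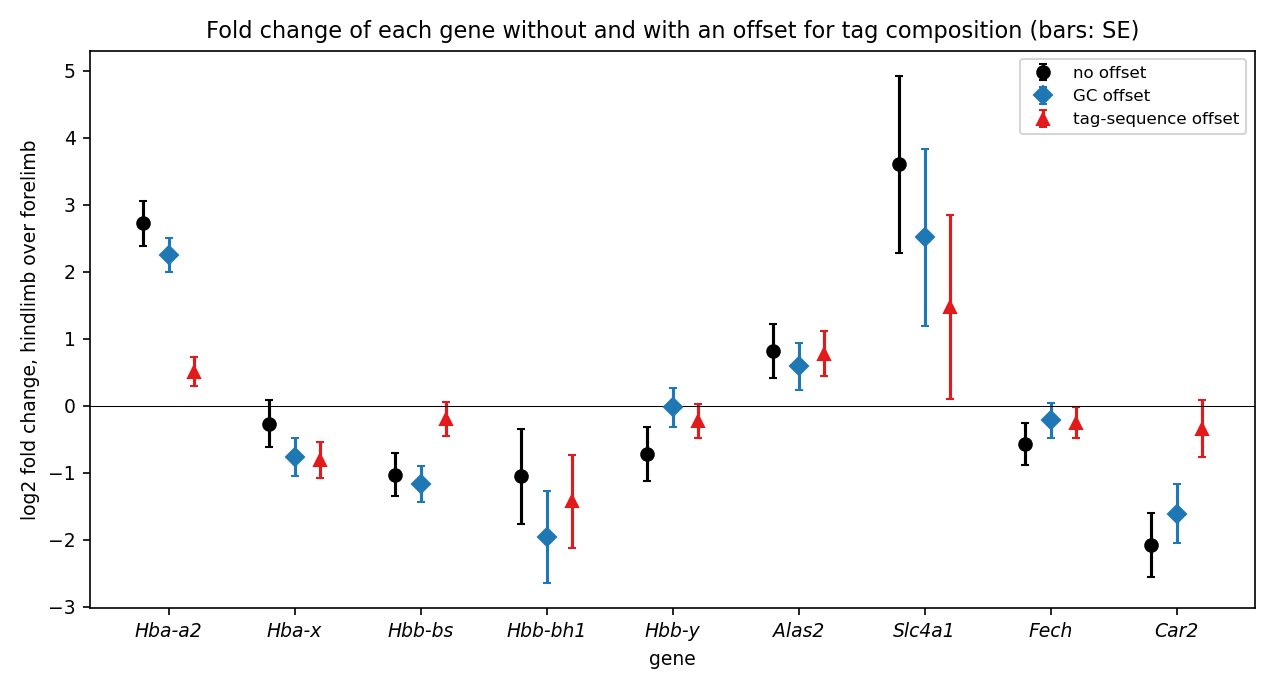
Log2 fold change of hindlimb over forelimb of each red cell gene without an offset, with the GC offset and with the tag composition offset (bars are SE). Hba-a2 stands at 2.72, 2.25 and 0.51, Hbb-bs at −1.03, −1.17 and −0.20, and Car2 at −2.08, −1.61 and −0.34.

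Beside the 5 lists that follow, 9.58% of all tested genes were called higher in hindlimb and 7.08% lower. Of 15 genes of heme synthesis and iron, 14 were tested, 2 rose in hindlimb and 12 did not pass (median log2 fold change 0.34). They were Alad (1.65 ± 0.38 SE, edgeR adjusted p = 0.00762) and Urod (1.04 ± 0.35, adjusted p = 0.0478), enzymes of the middle of the heme pathway. Of 12 transcription factors of red cell development, 9 were tested, 2 rose and 7 did not pass (median 0.19). They were Zfpm1, the GATA1 cofactor FOG1 (3.13 ± 0.76, edgeR adjusted p = 0.0105), and Bcl11a, a repressor of embryonic globin genes that is also used outside blood (1.68 ± 0.37, adjusted p = 0.00577). Gata1, the main red cell factor, had 3 and 5 counts in hindlimb and 39 and 2 in forelimb, and Klf1, which activates the adult beta gene, had 5 and 0 in hindlimb and 0 and 0 in forelimb. Both were below the filter.

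Of 16 genes of the red cell membrane and skeleton, 7 were tested, with 1 higher, 1 lower and 5 not called (median −0.68). Aqp1, a water channel also of endothelium, was higher in hindlimb (1.33 ± 0.36 SE, edgeR adjusted p = 0.0174), and Tmod1, an actin cap also of muscle, was lower (−1.24 ± 0.39, adjusted p = 0.0391). Of 11 further red cell genes, 6 were tested, Prdx2, an abundant peroxidase of red cells and other cells, rose (1.01 ± 0.31, edgeR adjusted p = 0.0338), and 5 did not pass. No tag was assigned to Ahsp, the alpha globin chaperone. Of the other globins, Cygb (1.12 ± 0.48, edgeR adjusted p = 0.119) and Mb (0.70 ± 0.67, adjusted p = 0.510) did not pass. With the tag composition offset edgeR called 0 genes of these 5 lists, against 0.182% of all tested genes. In that fit 4 genes of the lists had an unadjusted p under 0.05, and Zfpm1 stood at −0.86. Leaving out forelimb replicate 1 ended the calls of Alad (1.40), Urod (1.02), Zfpm1 (2.46), Aqp1 (1.33), Tmod1 (−1.39) and Prdx2 (0.99). Leaving out forelimb replicate 2 ended those of Bcl11a (1.54), Urod (1.05), Aqp1 (1.33) and Tmod1 (−1.10). Calls also ended without hindlimb replicate 2 for Urod (0.67), Zfpm1 (2.58) and Tmod1 (−1.35), and without hindlimb replicate 1 for Tmod1 (−1.13).

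Markers of other cells in a limb also differed, beside 9.58% of all tested genes called higher in hindlimb and 7.08% lower. Of 10 endothelial markers, 2 were higher in hindlimb, 1 was lower and 7 did not pass, and their summed level was 245 and 270 CPM in hindlimb and 253 and 206 CPM in forelimb. Of 8 tested macrophage markers, 3 were lower and 5 did not pass, with 77.1 and 43.9 CPM in hindlimb and 109 and 112 CPM in forelimb. Of 10 skeletal muscle markers, 4 were lower and 6 did not pass, with 1280 and 1526 CPM in hindlimb and 3276 and 2951 CPM in forelimb. Of 7 megakaryocyte and platelet markers, 3 were tested and 0 passed edgeR's test, with 0 at an unadjusted p under 0.05 and 0 called by DESeq2. Gp1ba of this list had no count. With the tag composition offset edgeR called 0 endothelial markers (0 at an unadjusted p under 0.05), 0 macrophage markers (1 at an unadjusted p under 0.05) and 2 muscle markers. DESeq2, run without the offset, called 3 endothelial, 1 macrophage and 4 muscle markers. Leaving out forelimb replicate 1 ended the calls of all 3 macrophage markers (lowest edgeR adjusted p of the list 0.103), and leaving out hindlimb replicate 2 left 1 of them. Leaving out either forelimb library ended the lower call among the endothelial markers, that of Cdh5 (−0.82 without replicate 1 and −1.42 without replicate 2), as did leaving out hindlimb replicate 2 (edgeR adjusted p = 0.123). The part of these cells in the levels of the red cell genes was not tested.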

How the data were processed

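Tags were counted in 2 hindlimb and 2 forelimb libraries of CD1 mouse embryos at E14.5. The authors deposited 1 table of raw, whole-number counts per 17-base tag, naming the UniGene cluster or Ensembl gene of a tag if it had any. Bowtie and mouse build mm9 were used per the submitters' processing notes, which in the form used here give no version or setting. Tags with neither name, 14.8% to 18.7% of a library's counts, stayed out of library sizes and tests.

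The counts were summed per Ensembl gene (or cluster). Hindlimb was set against forelimb with edgeR 4.0.16 in R 4.3.3 (quasi-likelihood test, TMM, filterByExpr, Benjamini-Hochberg at 0.05), without a replicate block. Single tags were tested likewise. Tags were matched to the sense strand of GENCODE M21 transcripts on GRCm38, not mm9. Intervals are 95%, from scipy 1.17.1, and cover counting error only, since the reads are PCR products without molecular identifiers. On simulated data with 100 genes changed 2-fold and 100 changed 4-fold, edgeR called 5 and 55 of them, and 1 of 13518 unchanged genes. The simulated counts held no difference in tag composition between libraries, so they do not show how many calls such a difference gives.

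The members, lists and alternatives were chosen with earlier results of these data known. Of every list, up to 4 called genes with the smallest p were to be named, or the 2 most abundant if none was called; the markers of other cells are given as counts and sums. Of every member, tags with at least 1 percent of its counts were named, at most 3 of them, plus those shared between globins. Other genes and tags named, among them Gata1, Klf1, Ahsp and beta site 2, were picked after their values were seen. Alternatives were other size factors, DESeq2 1.42.0, no filter, leaving out libraries, a replicate block, 2 offsets for tag composition, 3 choices of tags and thinning.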

Additional observations from a re-analysis of the deposited data

How the results depend on the processing

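Leaving out each library in turn gave 583 to 1899 genes higher in hindlimb and 367 to 2001 lower, against 1314 and 971. It gave 1 to 2 red cell genes higher and 0 to 3 lower, −1.20 to −0.86 for adult beta globin and −1.47 to −0.27 for embryonic beta globin. The labels do not say whether the replicate numbers pair hindlimb with forelimb samples. Deviations of same-numbered libraries had a correlation of −0.11, which cannot decide this with 2 libraries per limb type. With a replicate block, 1181 genes were higher and 970 lower, 1 red cell gene was lower, and adult beta globin stood at −1.03 without passing (edgeR adjusted p = 0.0866). A crossed replicate block, chosen after seeing the data, gave 1684 genes higher and 1486 lower. The GC offset gave 356 and 519, and the tag composition offset 11 and 14, with 0 red cell genes higher and 0 lower, adult alpha globin at 0.51 and adult beta globin at −0.20. From tags of 1 reference gene, 1 red cell gene was lower; Hbb-bs had no such tag. Thinned to the smallest library, adult beta globin stood at −1.01 and did not pass as a class, while Hbb-bs itself did (−1.04). The cause of these shifts was not tested. The embryonic alpha share, 10.0 points lower in hindlimb (−10.0), differed by −15.6 points from tags of 1 gene, by −40.2 from the last site or the most abundant tag, and by −4.20 with the tag composition offset. Without 1 library it ran from −10.3 to −9.67. No called red cell gene changed sign in these alternatives. Depth limits Slc4a1, Hbb-bh1, Gata1 and Klf1 most: 3 counts were worth 1.86 CPM in forelimb replicate 2.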

Other observations

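Several tags given to the adult globins differ by 1 or 2 bases from an abundant tag and match no M21 transcript. The abundant tag comes first in each pair, capitals mark the differing bases, and positions count from 1 at the first base after CATG.
Alpha site 4: gtgctgaatatgGagct
Alpha site 4 with G13T: gtgctgaatatgTagct
Beta site 3: ggtaatGccaaAgtgaa
Beta site 3 with G7C,A12G: ggtaatCccaaGgtgaa
Beta site 2: gcaagaaAgtgataact
Beta site 2 with A8G: gcaagaaGgtgataact
The alpha variant held 32.6% and 25.9% of its pair in hindlimb and 20.4% and 20.5% in forelimb. The variant of beta site 3 held 10.3% and 11.8% in hindlimb and 8.33% and 5.42% in forelimb. The variant of beta site 2 held 41.2% and 51.3% in hindlimb and 33.3% and 16.9% in forelimb, so in these 3 pairs both hindlimb libraries had the larger share. Another variant of beta site 2, with G5A,A8G, is not shown. It had 20 and 57 counts in hindlimb and 7 and 1 in forelimb. The pairs and this variant were picked after their values were seen, and the difference between the limbs was not tested. Variants of other abundant tags were far rarer: the C11T form of alpha site 1 had 1 and 2 counts in hindlimb and 0 and 0 in forelimb, beside 7002 and 7922 in hindlimb and 264 and 68 in forelimb for the main form.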
